A study of Mus musculus with 4 samples.

Results

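The genes described here are 39 genes of the G2 phase and of mitosis, taken by symbol from a list that was drawn up with earlier results of these data known, out of 25567 genes counted in single nuclei of the adult mouse hippocampus. All 39 were present in the counts of each of 4 libraries. Nuclei came from mice aged 8.5 months, either wild type (WT) or carrying Fasn-R1812W, an amino acid change in the fatty acid synthase that makes palmitate. The NeuN+ gate took nuclei stained for NeuN, a protein of postmitotic neurons, and the EdU+ gate took nuclei whose newly made DNA held EdU, a thymidine analogue. For the EdU+ gate, animals of both genotypes had received EdU at 100 mg/kg, 2 times a day over 3 days, with isolation on day 4. Each of the 4 groups, both genotypes in both gates, was 1 library of 384 wells, with 382 nuclei stated for it. Smart-seq2, in which each well holds 1 nucleus and whole transcripts are copied, was the library method. The labels tie no well to an animal and give neither the zygosity of Fasn-R1812W nor how many mice a library holds. Every comparison below is therefore between single libraries, without a replicate check and without a p-value.

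The genes that carry a cell through division are switched on late in the cell cycle and switched off again after it. Cyclins A and B activate the kinase Cdk1, which drives entry into mitosis, condensins and topoisomerase II compact and untangle the chromosomes, and kinesins and their partners build the spindle. The spindle checkpoint holds back the anaphase-promoting complex until each chromosome is attached, and a further set of proteins then splits the cell. In the adult hippocampus, cells known to divide include neural progenitors of the dentate gyrus, oligodendrocyte precursors and immune cells, whereas neurons do not divide.

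Nuclei with at least 1000 genes and 50000 reads were kept, which left 314 and 301 nuclei in NeuN+ WT and NeuN+ Fasn-R1812W, and 167 and 348 in EdU+ WT and EdU+ Fasn-R1812W. Total counts per library ran from 36368990 reads in EdU+ WT to 96597804 in EdU+ Fasn-R1812W. The kept EdU+ WT nuclei were the shallowest, with a median of 80771 reads and 1298 genes, against 224967 reads and 3006 genes in EdU+ Fasn-R1812W. The NeuN+ gate carried neuron markers, as its label calls for, whereas the EdU+ label names no cell type. At least 3 of 10 neuron markers were on in 99.7% of nuclei of both NeuN+ libraries, and in 20.4% of EdU+ WT and 14.4% of EdU+ Fasn-R1812W nuclei. At least 3 of 12 oligodendrocyte precursor markers were on in 83.2% of EdU+ WT nuclei and 71.0% of EdU+ Fasn-R1812W nuclei, against 4.78% and 4.32% in NeuN+. At least 3 of 12 leukocyte markers were on in 3 of 167 EdU+ WT and 32 of 348 EdU+ Fasn-R1812W nuclei, so the EdU+ libraries differed in the cells they held. The part of that difference, and of depth, in the results below was not tested. The same 384 well names served all 4 libraries.

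A member was counted as on in a nucleus when it had 10 or more reads there. Most nuclei of every library had few members on. The median was 2 in each NeuN+ library and 1 in each EdU+ library, and in 61 of 167 EdU+ WT nuclei (36.5%) no member was on at all. The libraries parted in the upper tail. No NeuN+ nucleus had more than 6 members on, whereas the highest counts were 23 in EdU+ WT and 29 in EdU+ Fasn-R1812W. At least 10 members were on in 0 of 314 and 0 of 301 NeuN+ nuclei, which by a limit of 3 nuclei in the total allows shares of up to 0.955% and 0.997%, and by the exact interval 1.17% and 1.22%. The EdU+ counts were 7 of 167 in WT (4.19%, exact Clopper-Pearson 95% interval 1.70 to 8.45) and 14 of 348 in Fasn-R1812W (4.02%, 2.22 to 6.65). All intervals here reflect counting alone, and PCR copies of 1 molecule count as several reads.

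**Figure D1:**
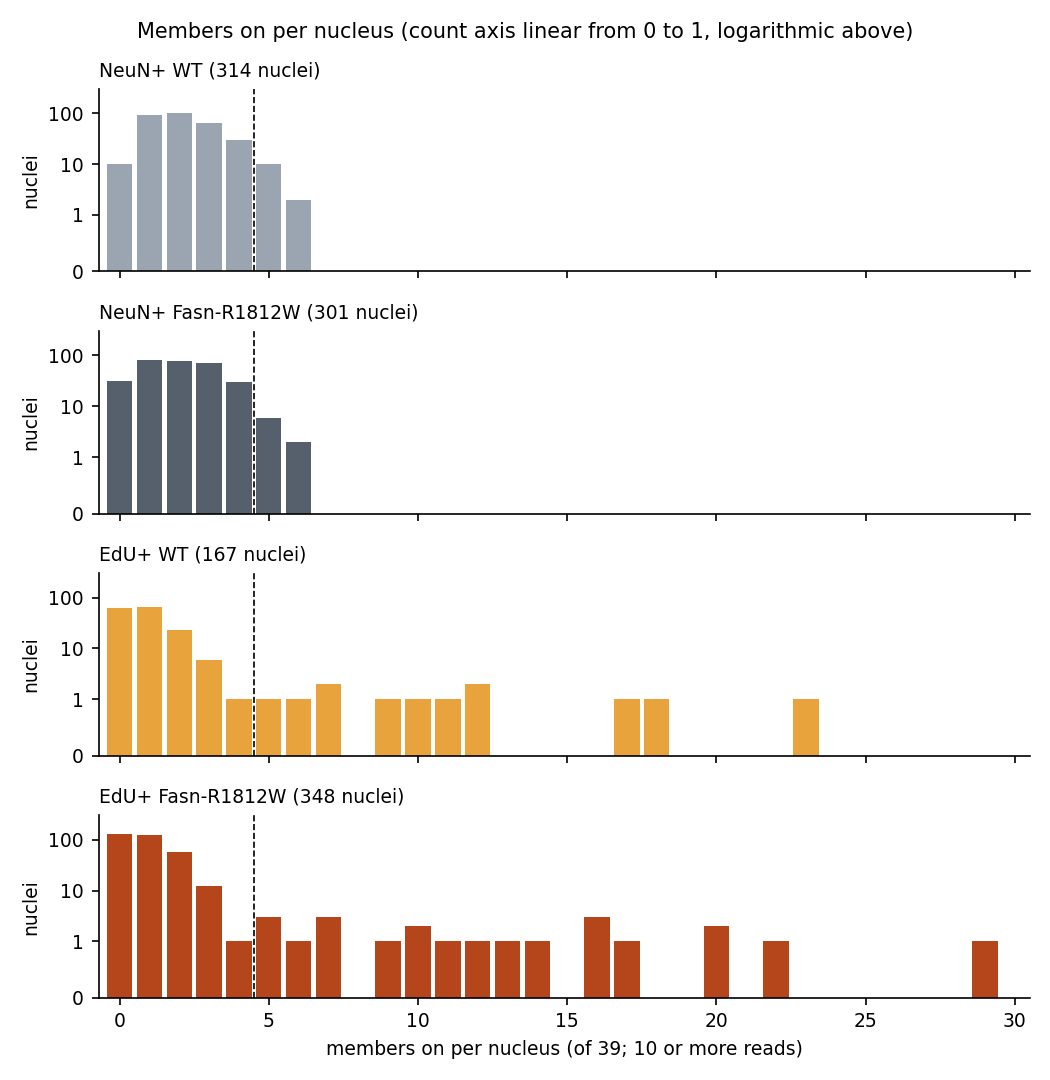
Number of the 39 members on (10 or more reads) in each kept nucleus, with 1 panel per library and the number of nuclei on the vertical axis, which is linear up to 1 and logarithmic above. The dashed line marks the threshold of at least 5 members; the NeuN+ libraries end at 6 members on, and the EdU+ libraries reach 23 (WT) and 29 (Fasn-R1812W).

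At the lower threshold of at least 5 members on, the share was 12 of 167 (7.19%, 3.77 to 12.2) in EdU+ WT and 22 of 348 (6.32%, 4.00 to 9.42) in EdU+ Fasn-R1812W. The difference, Fasn-R1812W minus WT, was -0.86 percentage points with a Newcombe interval of -6.25 to 3.44. This interval spans 0 and treats nuclei as independent. With 1 library per group, it cannot show whether the genotypes differ. The NeuN+ background at the same threshold was 12 of 314 (3.82%) and 8 of 301 (2.66%). After every nucleus was thinned to 50000 reads, 0 NeuN+ nuclei in both libraries reached 5 members, and 11 (6.59%) and 20 (5.75%) EdU+ nuclei did. With the relaxed filter of 300 genes and 20000 reads, which kept 352 and 376 EdU+ nuclei, the shares were 16 of 352 (4.55%) and 23 of 376 (6.12%), in the opposite order. Few nuclei lay at the threshold, with exactly 4 members on in 1 nucleus of each EdU+ library and exactly 5 in 1 and 3.

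The members fell into 21 that were on in under 2% of nuclei of both NeuN+ libraries and 18 that were not. The 21 quiet members were Top2a, Cenpa, Cenpf, Kif11, Kif20b, Kif23, Kif2c, Aspm, Tpx2, Ccnb1, Cdk1, Aurka, Aurkb, Bub1, Ttk, Ect2, Hmmr, Ube2c, Cdc20, Birc5 and Knl1. This split was made from the NeuN+ values and is a description of them. At least 3 quiet members were on in no NeuN+ nucleus, in 12 of 167 EdU+ WT nuclei (7.19%) and in 16 of 348 EdU+ Fasn-R1812W nuclei. Among the others, Arl6ip1, which codes for a protein that shapes the endoplasmic reticulum, was on in 241 of 314 and 201 of 301 NeuN+ nuclei and in 70 of 167 and 145 of 348 EdU+ nuclei. It was thus on in a larger share of neuronal than of EdU+ nuclei. So were Kif20a, Prc1, Ccna2, Bub1b, Plk1, Nusap1, Smc2, Ncapg and Ncapd2, each with both EdU+ shares below both NeuN+ shares. For 20 of 39 members both EdU+ shares lay above both NeuN+ shares. The like share of all genes was counted in neither direction, so these members cannot be set against a background.

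Mki67, the proliferation marker that coats mitotic chromosomes, was on in 31 of 314 and 32 of 301 NeuN+ nuclei, and in 17 of 167 and 27 of 348 EdU+ nuclei. These shares lay between 7.76% and 10.6% in all 4 libraries, so that the detection of Mki67 did not separate the gates. The genes on beside it were then counted. Of NeuN+ nuclei with Mki67 on, 0 of 31 and 0 of 32 had Top2a on, and 2 of 31 and 2 of 32 had any quiet member on. In EdU+, Top2a was on in 7 of 17 and 14 of 27 nuclei with Mki67, and at least 1 quiet member in 13 of 17 and 22 of 27. The quiet members, Top2a among them, were picked for being rare in NeuN+, so the low NeuN+ counts follow from that choice and are a description only. Top2a, the DNA topoisomerase that resolves sister chromatids, was on in 0 NeuN+ nuclei, in 7 EdU+ WT nuclei and in 17 EdU+ Fasn-R1812W nuclei. Of these nuclei, 7 of 7 and 15 of 17 had at least 5 members on.

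**Figure D2:**
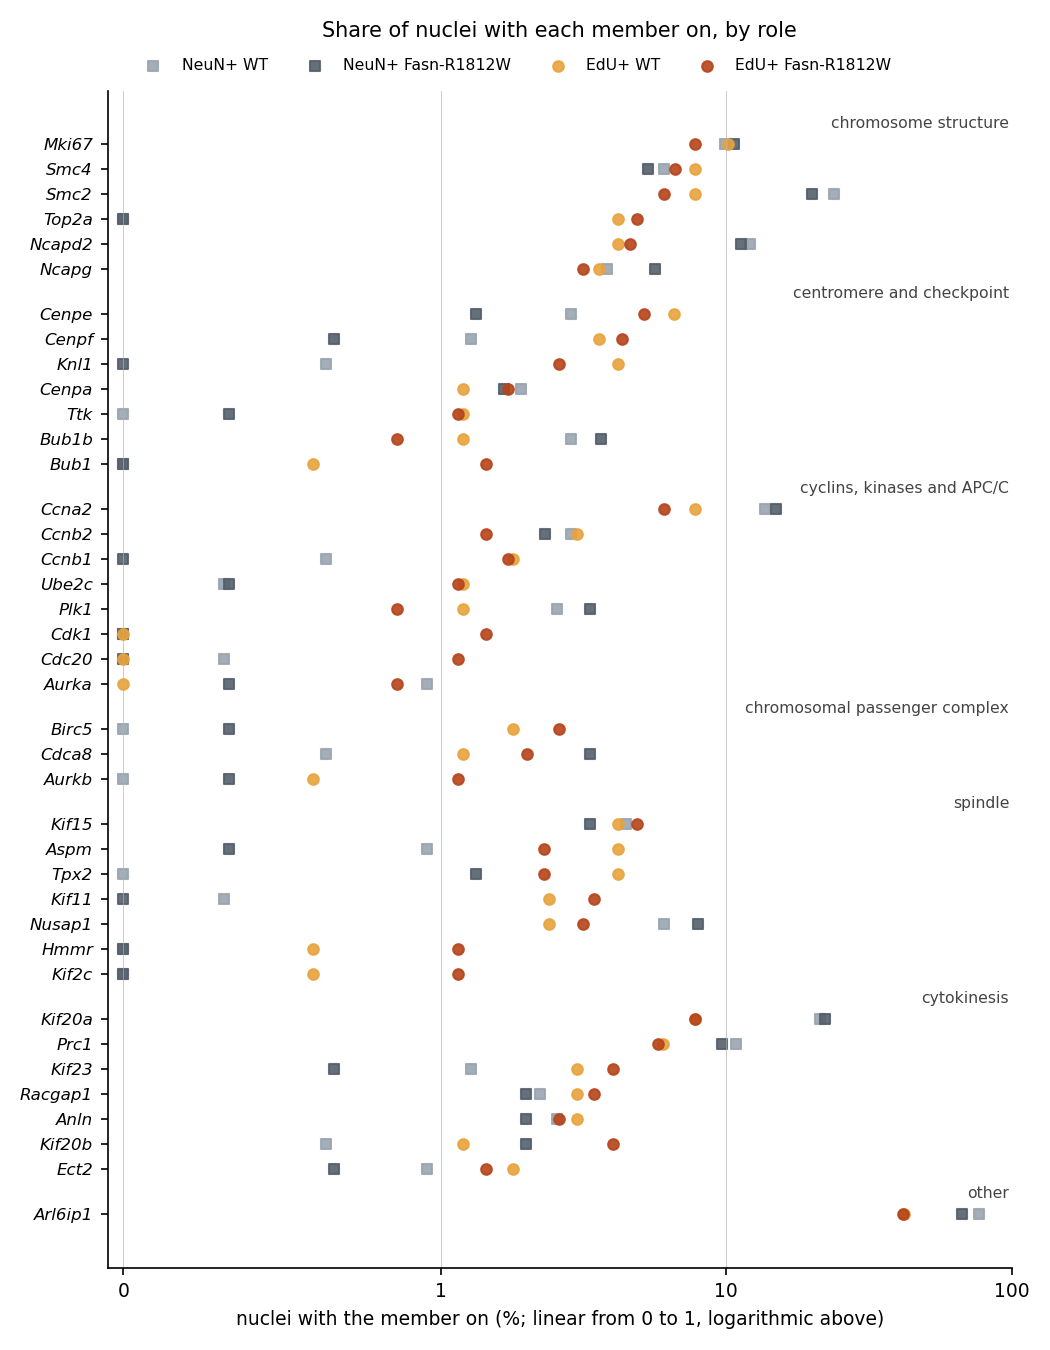
Percent of kept nuclei with each member on, in the 4 libraries (squares NeuN+, circles EdU+), with members grouped by role; the axis is linear from 0 to 1% and logarithmic above. Top2a lies at 0 in both NeuN+ libraries and at 4.19% and 4.89% in the EdU+ libraries. Kif20a, Smc2, Prc1, Ccna2, Arl6ip1, Bub1b, Plk1, Nusap1, Ncapg and Ncapd2 were on in a larger share of nuclei in both NeuN+ than in both EdU+ libraries.

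The promoters of 5 members are shown for the motifs they hold. In the textbook account, genes of this program carry a cell cycle homology element (TTTGAA, bound by the DREAM complex and by B-Myb with FoxM1) next to CCAAT boxes (bound by NF-Y). RefSeq promoter windows of build GRCm38.p6, from 250 bases before to 50 after a gene's start, were matched for 34 of 39 members, with 1 window per gene. TTTGAA was present on either strand in 28 of 34 windows (82.4%), against 18.1% of 27025 windows of all genes. CCAAT was present on either strand in 27 of 34 (79.4%), against 37.9%, and both were present in 23 of 34 (67.6%), against 7.12%. Neither motif contains the other. The stretches below run 5′ to 3′ on the gene's strand and stop before the first annotated start, and capitals mark the motif TTTGAA, the motif CCAAT or the reverse complement of either, read as TTCAAA for the first or as ATTGG for the second. They lie at chr11:99024190-99024319, chr7:135716380-135716509, chr10:69352939-69353042, chr4:118437353-118437473 (all on the minus strand) and chr19:37376252-37376381 (plus strand), in the order given.
Top2a: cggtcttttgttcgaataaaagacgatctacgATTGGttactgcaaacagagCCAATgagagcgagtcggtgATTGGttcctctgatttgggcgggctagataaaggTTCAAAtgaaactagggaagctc
Mki67: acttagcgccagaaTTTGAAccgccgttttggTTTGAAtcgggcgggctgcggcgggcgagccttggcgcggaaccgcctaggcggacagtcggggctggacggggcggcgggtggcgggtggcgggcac
Cdk1: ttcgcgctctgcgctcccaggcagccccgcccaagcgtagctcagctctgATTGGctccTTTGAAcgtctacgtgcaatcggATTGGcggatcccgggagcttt
Cdc20: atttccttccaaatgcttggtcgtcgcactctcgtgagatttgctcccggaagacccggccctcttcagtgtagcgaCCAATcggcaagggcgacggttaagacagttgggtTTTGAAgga
Kif11: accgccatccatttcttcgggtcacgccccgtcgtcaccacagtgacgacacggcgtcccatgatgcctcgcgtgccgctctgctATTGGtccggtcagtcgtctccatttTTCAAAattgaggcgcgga
A match describes letters in a window and shows no binding. In the whole windows, Top2a and Ube2c held 6 CCAAT boxes each, and Arl6ip1 held 2 with no TTTGAA.

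The 34 EdU+ nuclei with at least 5 members on (12 WT and 22 Fasn-R1812W) held genes of several steps of division together. Members fall into 6 roles apart from Arl6ip1, and 29 of 34 nuclei had members of at least 4 roles on. A chromosome structure gene was on in all 34, a spindle gene in 31, a centromere or checkpoint gene in 30, a cytokinesis gene in 29, a cyclin, kinase or anaphase-promoting complex gene in 21, and a chromosomal passenger gene in 17. These nuclei were picked for having at least 5 members on, so several roles together follow in part from that choice. The role counts are a description only. To describe each gene without letting it choose its own nuclei, its share on was also taken over nuclei with at least 5 other members on, in both EdU+ libraries together.

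Among chromosome structure genes, Mki67 was on in 28 of 30 nuclei with at least 5 other members on (93.3%, 77.9 to 99.2), against 3.30% of the remaining EdU+ nuclei. Top2a was on in 21 of 33 (63.6%, 45.1 to 79.6), against 0.62%. Smc2 and Smc4, the core ATPases of condensin, were on in 16 of 33 (48.5%) and 16 of 34 (47.1%), against 3.73% and 4.16%. The condensin subunits Ncapd2 and Ncapg were on in 29.4% and 20.6%.

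Centromere genes came next. Cenpf, a large outer kinetochore protein, was on in 16 of 32 such nuclei against 5 of 483 elsewhere. Cenpe, the kinesin that carries chromosomes to the spindle's middle, was on in 45.5% against 2.90%. Knl1, the scaffold that recruits the checkpoint kinase Bub1, was on in 36.4%. The checkpoint kinases were less often seen, Bub1 in 17.6% and Bub1b and Ttk in 14.7% each, as was the centromeric histone Cenpa in 14.7%.

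Among spindle genes, the kinesins Kif15 and Kif11, which push spindle poles apart, were on in 51.5% and 41.2%. Aspm, a spindle pole protein, was on in 36.4%, and Tpx2, which activates Aurora A on the spindle, in 33.3%. Nusap1 followed at 20.6%, and Kif2c and Hmmr at 14.7% each. Cytokinesis genes were on in 20.6% (Ect2) to 41.2% (Kif23), with Kif20b at 35.3%, Kif20a at 30.3%, Prc1 and Racgap1 at 29.4% and Anln at 26.5%. Kif20a and Prc1 were also on in 6.22% and 4.16% of the remaining EdU+ nuclei.

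Kinases and anaphase-promoting complex genes were on in few of these nuclei. Ccna2, cyclin A, was on in 34.4%, and the B cyclins Ccnb1 and Ccnb2 in 23.5% and 20.6%. Their partner Cdk1, the kinase Plk1 and the checkpoint target Cdc20 were on in 4 of 34 nuclei each (11.8%, 3.30 to 27.5), Ube2c in 15.2% and Aurka in 5.88%. The chromosomal passenger genes Birc5 and Cdca8 were on in 26.5% each, and their kinase Aurkb in 14.7%. For Bub1, Bub1b, Aurkb, Cdca8, Cdc20, Kif2c and Hmmr, 0 of the remaining EdU+ nuclei had the gene on. A level below 10 reads in a nucleus is not absence.

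Per length, Arl6ip1 was the most abundant member in EdU+, at 384 and 243 reads per kilobase of exon and 1000000 reads (RPKM) in WT and Fasn-R1812W. Ccnb2 (22.0 and 11.4 RPKM), Ccna2 (19.2 and 11.5 RPKM), Kif20a (13.3 and 14.6 RPKM) and Mki67 (14.2 and 10.5 RPKM) came next. Lowest by the mean of the EdU+ libraries were Ttk (0.99 and 0.22 RPKM), Hmmr (0.37 and 0.85 RPKM) and Bub1 (0.21 and 1.19 RPKM).

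The class of nucleus was read from markers that hold no cell cycle gene. Precursor markers on per nucleus fell into a low and a high group, with exactly 4 of 12 markers on in 4 WT and 3 Fasn-R1812W nuclei, and exactly 5 in 12 and 9. With at least 5 precursor markers on, 4 of 133 EdU+ WT nuclei (3.01%, 0.83 to 7.52) and 9 of 239 EdU+ Fasn-R1812W nuclei (3.77%, 1.74 to 7.03) had at least 5 members on. With fewer precursor markers the shares were 8 of 34 (23.5%, 10.7 to 41.2) and 13 of 109 (11.9%, 6.51 to 19.5). These intervals count nuclei within 1 library each, and the class of at least 5 precursor markers was set after seeing the data. The contrast depended on the class rule. By the clusters described next, at their main settings, the WT shares were 6 of 137 (1.62 to 9.29) in precursor-like clusters. Outside them the WT share was 6 of 30 (7.71 to 38.6). The precursor shares lay near the NeuN+ background at this threshold, 12 of 314 (3.82%) in WT and 8 of 301 (2.66%) in Fasn-R1812W. At least 10 members were on in 1 of 133 and 3 of 239 precursor nuclei, and in 6 of 34 and 11 of 109 others. After thinning to 50000 reads, 0 NeuN+ nuclei and 4 and 5 precursor-marked EdU+ nuclei (WT and Fasn-R1812W) had at least 5 members on. The remaining nuclei also differed in kind between the libraries, as the leukocyte markers show.

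Leiden clusters made without the members and further lists of mitosis and G1/S genes gave a like picture at the main settings. Cyclin D genes, cycle inhibitors and regulators of the program were not kept out of the clustering. The 7 clusters called oligodendrocyte precursor-like held 374 nuclei, and 6 of 137 in WT (4.38%, 1.62 to 9.29) and 8 of 237 in Fasn-R1812W (3.38%, 1.47 to 6.54) had at least 5 members on. The difference was -1.0 percentage points (Newcombe interval -6.12 to 2.92). Of those nuclei in WT, 4 of 6 lay in 1 of the 7 clusters, and in Fasn-R1812W they were spread over 6. A single further cluster of 62 nuclei, numbered 8, held 17 of the 34: 6 of 23 in WT (26.1%, 10.2 to 48.4) and 11 of 39 in Fasn-R1812W (28.2%, 15 to 44.9). It received no name, because its leading genes mixed Igfbpl1, a gene of immature neurons, with immune and precursor genes. Its highest marker list was that of neuronal progenitors and neuroblasts, with a mean log2 fold of 3.50 over NeuN+ nuclei, next to 3.36 for precursors. A cluster led by neutrophil and microglial genes held 2 of 64 such nuclei, and the cluster called leukocyte-like 1 of 15. With 10 or 30 principal components, a resolution of 0.5 or the relaxed filter, the precursor-like clusters held 12 to 16 WT and 17 to 20 Fasn-R1812W nuclei with at least 5 members on, and their shares ran from 5.26% to 7.55%. EdU+ WT held 12 such nuclei in all, and 16 with the relaxed filter, so each of them then lay in a precursor-like cluster. In WT, the higher share outside the precursor-like clusters was thus not seen at these settings.

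**Figure D3:**
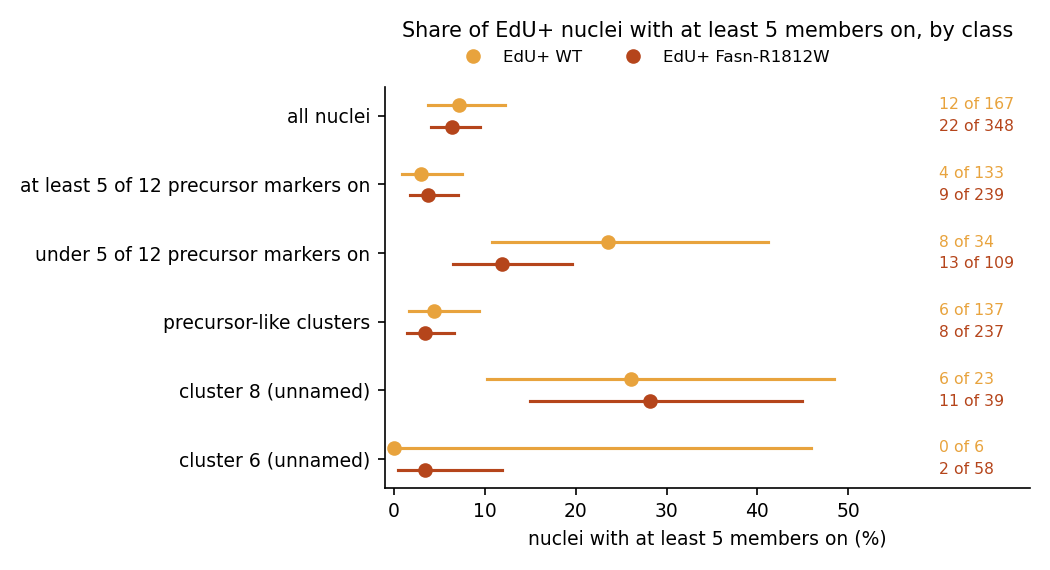
Percent of EdU+ nuclei with at least 5 members on in each class, for WT and Fasn-R1812W; points are shares, lines exact 95% Clopper-Pearson intervals (counting error only), and the numbers of nuclei stand at the right. Precursor-like nuclei lie at 3.01% to 4.38%, and the unnamed cluster 8 at 26.1% and 28.2%. The NeuN+ libraries, not drawn, stood at 3.82% (WT) and 2.66% (Fasn-R1812W) at the same threshold.

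The 34 nuclei differed in their DNA replication genes along the same line. Of 50 genes of the G1/S transition, which license origins and copy DNA, a median of 7.5 were on in the 34 nuclei and 1 in the other 481 EdU+ nuclei. The 13 nuclei with at least 5 precursor markers had a median of 1 on (range 0 to 7), and the 21 others a median of 12 (range 1 to 36). At least 4 G1/S genes were on in 1 of 13 and in 20 of 21. Nasp, a histone chaperone, was on in 1 of 13 and 14 of 21. Rrm2, the ribonucleotide reductase subunit, and Uhrf1, which maintains DNA methylation, were each on in 0 of 13 and 11 of 21. The nuclei also differed in depth, with medians of 169794 and 188435 reads. After thinning to 50000 reads, with members and markers counted anew, the medians were 0 G1/S genes (9 nuclei) and 8.5 (22 nuclei).

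**Figure D4:**
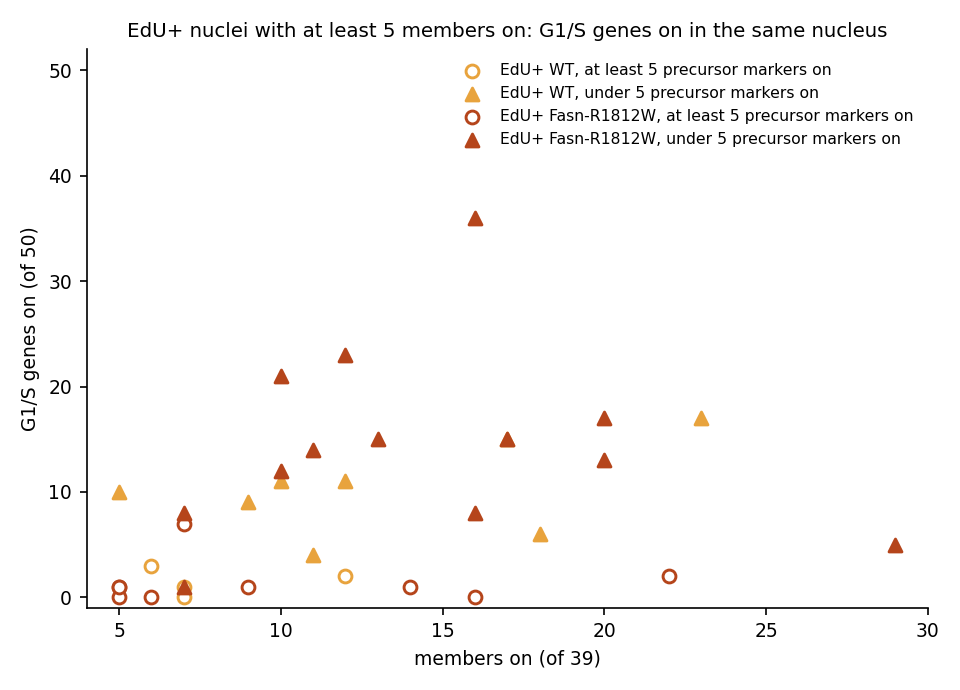
For each of the 34 EdU+ nuclei with at least 5 members on, the number of members on (of 39) against the number of G1/S genes on (of 50); open circles have at least 5 precursor markers on, filled triangles fewer, and colours are the libraries. Open circles lie at 0 to 7 G1/S genes and triangles at 1 to 36; some points coincide.

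The members themselves were on in different proportions in the 13 and the 21 nuclei. Leaving each gene out of its own count, Mki67 was on in 10 of 10 and 18 of 20, and Arl6ip1 in 10 of 10 and 11 of 21. Top2a was on in 2 of 13 and 19 of 20, Kif15 in 1 of 12 and 16 of 21, Smc2 in 2 of 12 and 14 of 21, Smc4 in 2 of 13 and 14 of 21, and Knl1 in 1 of 13 and 11 of 20. Others did not lean that way: Tpx2 was on in 6 of 12 and 5 of 21, Ccnb1 in 5 of 13 and 3 of 21, Cdc20 in 3 of 13 and 1 of 21, and Kif23 in 6 of 13 and 8 of 21. Members on per nucleus had medians of 7 and 12, so the groups also differed in how many members they had on. At least 10 were on in 4 of 13 and 17 of 21. Before thinning, the share of precursor nuclei reaching 5 members was near the NeuN+ background. After thinning to 50000 reads, 9 precursor-marked EdU+ nuclei and 0 NeuN+ nuclei reached 5 members.

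Genes around the members were read from 4 further lists. Of 64 other mitosis genes, a median of 13 were on in the 34 nuclei against 1 in the remaining EdU+ nuclei. Hjurp, the chaperone of Cenpa, was on in 18 of 34 and 19.3% of the remaining nuclei, Ckap5, a microtubule polymerase, in 17 of 34 and 13.1%, and Cdca3, which aids mitotic entry, in 12 of 34 and 0 of 481. Of 16 regulators of the program, the median was 2 against 0. Mybl1, a Myb family transcription factor, was on in 14 of 34, and Foxm1, the transcription factor of G2/M genes, in 7 of 34 and 1 of 481. Foxm1 was on in 0 of the 13 precursor-marked and 7 of the 21 other nuclei, and Hjurp in 2 and 16. For Mybl1 these were 5 of 13 and 9 of 21, for Ckap5 8 and 9, and for Cdca3 6 and 6. Of 21 cycle inhibitors and cyclin D genes, the median was 4 against 1. Split into the 13 precursor-marked and the 21 other nuclei, the medians were 7 and 18 for other mitosis genes. They were 1 and 2 for regulators, and 2 and 5 for inhibitors and cyclin D genes. Ccnd1 was on in 12 of 13 precursor-marked and 3 of 21 other nuclei, whereas Ccnd2 was on in 3 of 13 and 13 of 21, and Cdk6, the kinase they activate, in 2 of 13 and 13 of 21. Cdca3, Mybl1, Foxm1, Rrm2 and Uhrf1 were chosen after their values were seen.

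Levels were then summed in each library's kept nuclei as CPM, a gene's share of nuclear-gene reads times 1000000. A pooled level alone does not tell fewer expressing nuclei from less RNA per nucleus. Shares of nuclei with a member on were counted separately, above. The 38 members without Arl6ip1 together made up 354 and 322 CPM in NeuN+ WT and NeuN+ Fasn-R1812W, and 1171 and 890 CPM in EdU+ WT and EdU+ Fasn-R1812W. The 10 nuclei with the most member reads held 67.7% and 46.8% of them in EdU+, against 16.7% and 24.2% in NeuN+. A single nucleus gave at least 50% of a member's reads for 19 of 36 members with reads in EdU+ WT and 10 of 39 in EdU+ Fasn-R1812W, and for 9 of 34 in NeuN+ WT and 15 of 38 in NeuN+ Fasn-R1812W.

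Between the gates, 28 of 39 members were at least 2-fold higher in EdU+ WT than in NeuN+ WT and 0 were lower, with a median log2 ratio of 2.30 after a prior of 1 CPM. Among all genes with a mean of at least 1 CPM, 24.1% were at least 2-fold higher and 26.3% lower, with a median of -0.03. In Fasn-R1812W, 29 members were higher and 1 was lower, with a median of 2.02, against 25.9% and 23.6% of all genes and a median of 0.02. Of the 39, 35 in WT and 38 in Fasn-R1812W had a mean of at least 1 CPM. Only 9 members in WT and 14 in Fasn-R1812W passed the filter of 10 CPM and a read in 10% of nuclei, and of these 4 and 8 were at least 2-fold higher (background 14.5% and 20.4%), with 0 lower in both (background 24.4% and 22.2%). Either library could meet the filter, so members high in EdU+ alone could enter, and these counts follow in part from that rule. For 29 of 39 members both EdU+ libraries lay above both NeuN+ libraries in CPM (background 27.9%), and for Bub1b and Smc2 both lay below (background 30%).

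Top2a was at 0.20 and 0.17 CPM in NeuN+ WT and NeuN+ Fasn-R1812W, and at 98.3 (exact Poisson 95% interval 93.4 to 103) and 51.3 (49.9 to 52.8) CPM in EdU+ WT and EdU+ Fasn-R1812W. Its gates did not overlap. Mki67 was at 24.1 and 33.4 CPM in NeuN+ and at 143 and 106 CPM in EdU+. Cenpf was at 1.01 and 2.46 CPM in NeuN+ and at 33.7 and 47.8 CPM in EdU+. These genes were higher in both EdU+ libraries, Top2a by the widest log2 ratio of the 39 in both genotypes, 6.37 and 5.48. Aspm was at 1.94 and 0.26 CPM against 50.2 and 30.8 CPM, Cenpe at 4.68 and 5.49 CPM against 54.5 and 30.9 CPM, and Tpx2 at 0.04 and 2.32 CPM against 62.5 and 22.0 CPM. Birc5, survivin, had 0 reads in NeuN+ WT and 20.5 CPM in EdU+ WT, at least 475-fold higher when the NeuN+ library is set at 3 reads, and Kif2c at least 90.9-fold. In EdU+ WT, Birc5 was on in 2 of 12 nuclei with at least 5 other members on and in 1 of 155 others. Kif2c was on in 1 of 12 and 0 of 155, so each fold rests on few nuclei.

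Of the members with a neuronal background, given next, both EdU+ libraries lay below both NeuN+ libraries for Smc2 and Bub1b, and the gates overlapped for Ncapd2 and Nusap1. Smc2 was at 87.8 and 55.6 CPM in NeuN+ and at 45.4 and 41.2 CPM in EdU+. Kif20a, a cytokinesis kinesin, was at 50.6 and 39.4 CPM against 57.9 and 63.5 CPM, and Prc1, which bundles midzone microtubules, at 28.6 and 18.6 CPM against 55.5 and 63.2 CPM. Ccna2 was at 33.5 and 44.7 CPM in NeuN+ and 78.4 and 47.0 CPM in EdU+, where the Fasn-R1812W libraries lay 0.07 apart on the log2 scale. Ncapd2 was at 27.6 and 20 CPM against 49.6 and 22.7 CPM, Smc4 at 24.8 and 9.86 CPM against 64.5 and 43.2 CPM, and Nusap1 at 11.9 and 11.6 CPM against 17.5 and 11.7 CPM. Bub1b was at 7.60 and 24.3 CPM in NeuN+ and 7.25 and 3.74 CPM in EdU+, and Arl6ip1 at 445 and 345 CPM against 953 and 604 CPM. The 19 members whose levels are not given singly ran up to 7.90 CPM (Ncapg) in NeuN+ WT and 8.76 CPM (Cenpa) in NeuN+ Fasn-R1812W. In EdU+ they ran from 2.0 (Hmmr) to 35.6 CPM (Knl1) in WT and from 1.09 (Ttk) to 27.5 CPM (Kif15) in Fasn-R1812W.

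Part of this group overlaps other genes: these are members whose exons share bases with a neighbour on the opposite strand, and the strand setting of the counting is not known here. Kif20a shares 29.3% of its exon length with Cdc23, Ncapg 13.4% with Lcorl, Ccna2 12.5% with Exosc9 and Prc1 11.1% with Rccd1, all of which had reads in all 4 libraries. Cdc23 stood at 105 and 76.0 CPM in NeuN+ and at 58.5 and 116 CPM in EdU+. The part of these neighbours in the members' counts was not tested. Ube2c shares 22.8% with Tnnc2, which was at or near 0 CPM in each library, at most 0.57. Smc2, Mki67 and Arl6ip1 had no overlapping exons of that extent.

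Between the NeuN+ libraries, 24 members had a mean of at least 1 CPM. At least 2-fold higher in Fasn-R1812W were 5 of them (background 7.42%), namely Cenpa, Kif20b, Tpx2, Bub1b and Cdca8, and 2 were lower (background 7.38%), Aspm and Smc4. All but Bub1b and Smc4 stood under 10 CPM in both NeuN+ libraries, and 1 nucleus gave 64.9% of the Cenpa reads in NeuN+ Fasn-R1812W. Of the 9 members that passed the filter of 10 CPM and a read in 10% of nuclei, 0 were higher (background 3.18%) and 1, Smc4, was lower (background 3.02%).

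Between the EdU+ libraries, 13 members were higher in Fasn-R1812W than in WT and 26 lower, with a median log2 ratio of -0.41 against 0.05 for all genes with a mean of at least 1 CPM. At least 2-fold higher were 5 members (background 23.2%), and at least 2-fold lower were 7 (background 17.3%). The share lower is near its background, and the share higher is below it. With the relaxed nucleus filter the order turned, with 21 members higher and 18 lower and a median of 0.16. Of the 13 members that passed the filter of 10 CPM and a read in 10% of nuclei, 1 was at least 2-fold higher and 1 lower (background 17.4% and 8.01%). The genotype of these libraries cannot be told apart from their depth and their cell makeup.

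Mki67 was lower in Fasn-R1812W by a log2 ratio of -0.43, but higher by 0.65 with the relaxed filter. Top2a was lower by -0.93, and between -1.18 and -0.83 in the alternatives. Tpx2 was lower by -1.46, with 52.9% of its EdU+ WT reads from 1 nucleus, and by -0.15 when nuclei were thinned to 50000 reads. Cdk1, Aurka and Cdc20 had 0 reads in EdU+ WT, and 22.6, 24 and 7.5 CPM in EdU+ Fasn-R1812W. In NeuN+ WT and NeuN+ Fasn-R1812W, Cdk1 was at 0 and 0.10 CPM, Aurka at 0.50 and 0.24 CPM and Cdc20 at 0.88 and 0.04 CPM. Set at 3 reads in WT, they were at least 113-fold, 120-fold and 37.6-fold higher. In EdU+ Fasn-R1812W, 1 nucleus gave 96.1% of the Aurka reads, and only 2.59% of them lay in nuclei with at least 5 members on. For Cdk1, 1 nucleus gave 51.1%, and 5 nuclei in all had it on. Cdc20 was on in 4 nuclei, with 99.0% of its reads in nuclei with at least 5 members on. Bub1 was at 0.93 and 5.17 CPM in EdU+ WT and EdU+ Fasn-R1812W, and 0 and 0.07 CPM in NeuN+. Cdca8, borealin of the passenger complex, was at 3.73 and 15.8 CPM in EdU+ and 0.98 and 5.31 CPM in NeuN+.

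**Figure D5:**
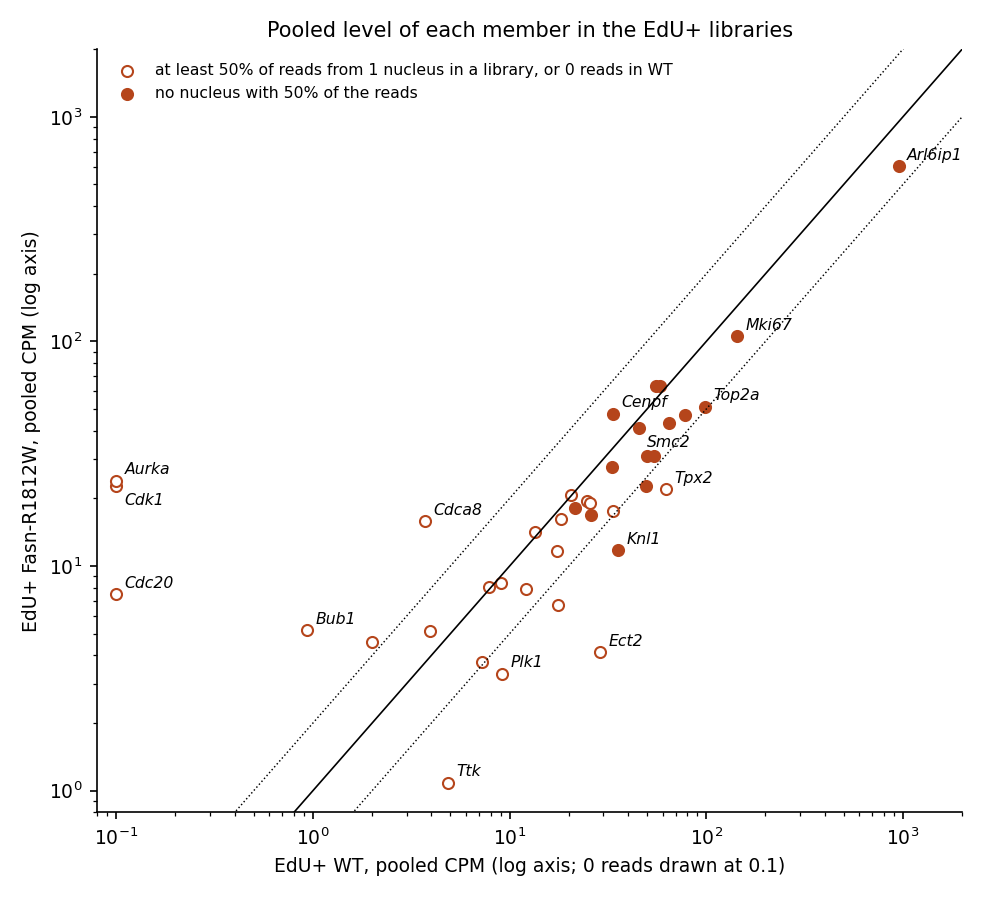
Pooled CPM of each of the 39 members in EdU+ WT (horizontal) and EdU+ Fasn-R1812W (vertical), both on log axes; the solid line marks equal levels and the dotted lines 2-fold. Open circles are members with at least 50% of their reads from 1 nucleus in a library, or with 0 reads in WT (drawn at 0.1); Cdk1, Aurka and Cdc20 lie at the left edge, and 26 of 39 members lie below the solid line.

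The other lists, at a mean of at least 1 CPM and in the same contrast of the EdU+ libraries (background again 23.2% higher and 17.3% lower), had 12 of 61 other mitosis genes at least 2-fold higher and 13 lower (median log2 ratio -0.26). For G1/S genes these were 9 and 6 of 44 (median 0.18), for regulators 3 and 1 of 16 (median 0.32), and for inhibitors and cyclin D genes 5 and 3 of 19 (median 0.57). Zwint, a kinetochore protein also present in neurons, was at 566 and 566 CPM in NeuN+ WT and NeuN+ Fasn-R1812W and at 443 and 151 CPM in EdU+ WT and EdU+ Fasn-R1812W. G2e3, a ubiquitin ligase, was at 66.9 and 68.0 CPM against 50.1 and 133 CPM. Hjurp was at 104 and 120.1 CPM against 295 and 227 CPM, and Ckap5 at 128 and 92.1 CPM against 212 and 124 CPM. Of the G1/S genes, Nasp was at 59.5 and 36.9 CPM in NeuN+ and 112 and 103 CPM in EdU+. Rfc2, a clamp loader subunit, was at 56.0 and 72.3 CPM against 76.0 and 141 CPM, and Gins2, of the replicative helicase, at 109 and 71.6 CPM against 120.1 and 54.9 CPM. Pcna, the sliding clamp of DNA polymerase, was at 43.1 and 27.3 CPM against 42.6 and 73.4 CPM. Of the regulators, the histone-binding protein Rbbp4 was at 83.3 and 71.1 CPM in NeuN+ and 89.2 and 155 CPM in EdU+. The transcription factor E2f2 was at 3.07 and 0 CPM against 36.7 and 17.6 CPM, with 70.2% and 68.4% of its EdU+ reads from 1 nucleus. The NF-Y subunits Nfyb and Nfyc were at 49.2 and 63.2 CPM and at 67.8 and 53.1 CPM in NeuN+, and at 50.1 and 52.6 CPM and at 29.7 and 20.8 CPM in EdU+. Ccnd1, cyclin D1, was at 9.60 and 25.6 CPM in NeuN+ and at 276 and 288 CPM in EdU+, and Ccnd2 at 148 and 200.1 CPM against 263 and 226 CPM. Cdk6 was at 24.6 and 20.2 CPM against 114 and 237 CPM, and Cdk4 at 67.8 and 88.6 CPM against 200.4 and 99.3 CPM.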

How the data were processed

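Single nuclei of 4 libraries, 1 per group, were analysed. The deposited values are whole-number read counts per gene and well, without normalization and without molecular identifiers. Per the submitters' processing notes, the authors used Trimmomatic 0.36, STAR 2.5.3a and build GRCm38.p5. Which program counted the reads, with which annotation and strand option, is not stated in the labels. Embryonic nuclei were not analysed here.

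Counts of kept nuclei were summed and divided by the total of nuclear genes (CPM). Log2 ratios used a prior of 1 CPM and a call at 2-fold. No test was possible within a gate, with 1 library per group, and no model of gate plus genotype was fitted to all 4 libraries. Intervals are 95% Clopper-Pearson, Poisson or Newcombe, and a count of 0 was set at 3 reads where a fold is given. The total counts per library set the precision: 71221156, 72468235, 36368990 and 96597804 reads for NeuN+ (WT, then Fasn-R1812W) and EdU+ (in the same order). Positions and exon overlaps are from GENCODE release M21. EdU+ nuclei were clustered with scanpy 1.11.5 and igraph 0.11.9 (2000 variable genes, 20 principal components, 15 neighbours, resolution 1) without the members, the other mitosis and G1/S genes, histone, Y-linked and mitochondrial genes, Xist and Tsix. Clusters were named after the list whose markers had the largest average log2 fold over NeuN+ nuclei, provided that 3 or more of those markers were 2-fold higher and no other list had more members among the 10 leading genes. That rule, the 21 quiet members, the class of at least 5 precursor markers and the background at a mean of 1 CPM were set after seeing the data. No doublet caller was run, and as an alternative the top 5% of nuclei by genes detected were dropped. TMM factors came from edgeR 4.0.16, and Python 3.11.15 was used otherwise. The ratio and counting steps were tested on simulated data.

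The members and lists were chosen with earlier results of these data known. Named genes were the 12 members with the highest mean EdU+ CPM, members at 10 CPM or more in NeuN+, members 2-fold apart in EdU+ against the members' median, and the 4 highest genes of each other list.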

Additional observations from a re-analysis of the deposited data

Results flagged for a closer look

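Cenpa and Tpx2 differed between genotypes in opposite directions in the EdU+ and NeuN+ gates, a difference between gates that was not tested. The log2 ratio of Fasn-R1812W over WT was -1.28 in EdU+ and 1.60 in NeuN+ for Cenpa. It was -1.46 in EdU+ and 1.67 in NeuN+ for Tpx2. In EdU+ WT, 1 nucleus held 94.4% of the Cenpa reads and 52.9% of the Tpx2 reads. In NeuN+ Fasn-R1812W, 1 nucleus held 64.9% of the Cenpa reads and 68.7% of the Tpx2 reads.

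Wells outside the nucleus filter also held members. In EdU+ WT, 4 of 217 such wells had at least 5 members on, and in EdU+ Fasn-R1812W 1 of 36. In the NeuN+ libraries there were 0 of 70 (WT) and 0 of 83 (Fasn-R1812W), and the difference was not tested.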

How the results depend on the processing

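No paired analysis was possible because each group is 1 library and the labels carry no replicate numbers, and leaving out a replicate was not possible for the same reason. The difference in the share of EdU+ nuclei with at least 5 members on stayed within its interval in 8 of 10 alternatives. It was -33.9 percentage points with the strict filter of 2000 genes and 100000 reads, which left 5 EdU+ WT nuclei, and 23.3 points when 1 read counted as on, and the cause of that was not tested. It was also above 0 with the relaxed filter (1.57 points), without a nucleus filter (1.82) and with 50 reads for on (0.38). In precursor-like nuclei it stayed within its interval in all 7 alternatives, from -1.94 to 1.49 points. In some of these alternatives, given above, that class took in all EdU+ WT nuclei with at least 5 members on. For the EdU+ genotype ratio, the main count was 1 member at least 2-fold higher and 1 lower of the 13 that passed the filter. Without a filter on low genes, or at a mean of 1 CPM, these were 5 and 7 of 39. The number lower was 0 with the mean CPM per nucleus and with thinning, and 2 without a nucleus filter, of 13 in each, and the cause was not tested. For EdU+ over NeuN+, the medians were 0.93 (WT, 9 members) and 1.67 (Fasn-R1812W, 14 members), with 4 and 8 higher. Without a filter on low genes the WT median was 2.30, with 28 higher, and 29 were higher and 1 lower in Fasn-R1812W. At a mean of 1 CPM the WT median was 2.41, with 28 higher, and the Fasn-R1812W counts were 29 higher and 1 lower. In WT, 1 of the 9 members was lower with TMM scaling, with the mean CPM per nucleus and with the relaxed filter, against 0 otherwise. Of 20 named members, the EdU+ genotype ratio moved by over 1.5-fold in 0 with TMM, 6 with the mean per nucleus, 5 each with the relaxed filter, no filter and thinning, and 4 with a prior of 0.1 CPM. With the mean per nucleus Smc2 was at 0.51 and Nusap1 at 0.20 log2, on the other side of 0. The depth of EdU+ WT, with 167 nuclei and a median of 80771 reads, limits what a low count there can show.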
